A study of Mus musculus with 9 samples.

Results

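The genes of glucuronidation, sulfation and ester hydrolysis were followed in mouse liver on a methionine-choline-deficient (MCD) diet, with and without sarsasapogenin. They were taken by symbol, as every UGT1A, UGT2, UGT3, cytosolic sulfotransferase (SULT) and carboxylesterase (CES) gene whose authors' mean was at least 10 normalised reads in a deposited table. Of 16521 gene IDs in the deposited data, 51 carried such a symbol and 38 passed the minimum. These 38 genes were 15 UGT, 10 SULT and 13 CES genes, of which 36 passed in both tables and 2, Sult2a7 and Sult3a1, in the table of model against normal alone. The 13 symbols under the minimum were Ces1a, Ces1h, Ces2b, Ces2h, Sult2a1, Sult2a5, Sult2b1, Sult3a2, Sult4a1, Sult6b1, Ugt1a10, Ugt1a2 and Ugt1a7c.

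UDP-glucuronosyltransferases (UGTs) join glucuronic acid from UDP-glucuronic acid to bilirubin, steroids, bile acids and drugs in the endoplasmic reticulum. Cytosolic sulfotransferases transfer sulfate from the donor PAPS to the hydroxyl groups of steroids, bile acids, catechols and phenols. Carboxylesterases cut the ester and amide bonds of drugs and also of triglycerides and retinyl esters, and the liver holds members of all 3 families.

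RNA was measured in 9 liver samples of C57BL/6 mice, in 3 groups of 3. The SAR group received the MCD diet and a high dose of sarsasapogenin, a steroidal sapogenin, in an amount that the labels do not give. The model group received the MCD diet without it, and the normal group received normal saline. The labels name the MCD diet for the SAR and model groups only and do not give the diet of the normal group. The MCD diet withholds nutrients that the liver needs to export fat and is a common way to cause a fatty, inflamed and fibrotic liver. Age, sex and the length of the treatment are not in the labels. The labels do not tie samples to separate mice, so a p-value here reflects how far these samples spread, and that spread may be technical.

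The authors deposited group means, from which the reads of each library were recovered. Within a group, library a has the largest size factor and library c the smallest. The letters have no link to the replicate numbers of the labels. The model libraries held 12503819, 13320823 and 14939063 reads assigned to genes. The 3 SAR libraries together held between 36171303 and 37399479 reads, and the 3 normal libraries between 43113783 and 45913050. A library of the model group and one of the normal group stood apart from the rest of their groups. Across 12303 genes, the correlation of log2 values of model library c with a and b was 0.928 and 0.941, against 0.980 between a and b. It was 0.934 and 0.925 for normal library c, against 0.977 between normal a and b, and 0.963 to 0.970 within the SAR group. Neutrophil and acute phase genes, summed over the 8 of 11 that were resolved, were at 2846 to 4251 normalised reads in the SAR libraries and 11605 to 20916 in the model libraries. In the normal group that sum was 408 in a, 800 in b and 77984 in c. Its part in the results below was not tested. Values without one or both of these libraries are given beside calls, counts and ratios that they change, and sums and means are otherwise of all libraries.

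Most of these genes were lower in the model group than in the normal group and higher in the SAR group than in the model group. Against the normal group, 16 of the 38 genes were called, beside 39% of all 12578 genes tested: 15 fell in the model group and 1 rose, Sult2a2 (limma on log2 values, adjusted p below 0.05). Of all genes, 19.1% were called lower and 19.9% higher. The median log2 fold change was −1.42 over the 38 genes and 0.03 over all genes tested. Against the model group, 28 of the 35 genes tested were called, beside 29.3% of all 12479 genes: 26 rose in the SAR group and 2 fell, Sult1e1 and Sult2a2. Of all genes, 13.2% were called higher and 16.1% lower, and the median log2 fold change was 0.01, against 1.66 over the 35 genes. Against the normal group, 2 of 36 genes were called in the SAR group, Sult1c2 and Sult5a1, both higher, beside 3.54% of all 11616 genes, with 1.71% called higher and 1.83% lower. A gene that misses the threshold is not thereby shown to be equal in both groups. The comparisons of model with normal and of SAR with model share the model libraries, so their fold changes are not independent. These counts cover the genes above the filter. Sult2a2 reached it through the model group, Sult2a7 and Sult3a1 through the normal group, and Ces4a and Ugt2b37 through the normal and SAR groups. The directions of these genes against the model group therefore lend the counts and medians no support.

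In bulk liver RNA, fewer cells of a type and less RNA per cell cannot be told apart. The sizes of the groups' changes also depend on the scaling. Scaling to the summed group means instead of the authors' size factors moved the median of all genes tested to 0.61 in model against normal and to −0.54 in SAR against model. Under that scaling 11 of the 38 genes were called lower and 2 higher in the model group, beside 4.53% and 45.9% of all genes. With it 19 of 34 were called higher and 2 lower in the SAR group, beside 3.04% and 45% of all genes. Log2 values below are on the authors' size factors, so they are relative to a median of all genes near 0.

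**Figure D1:**
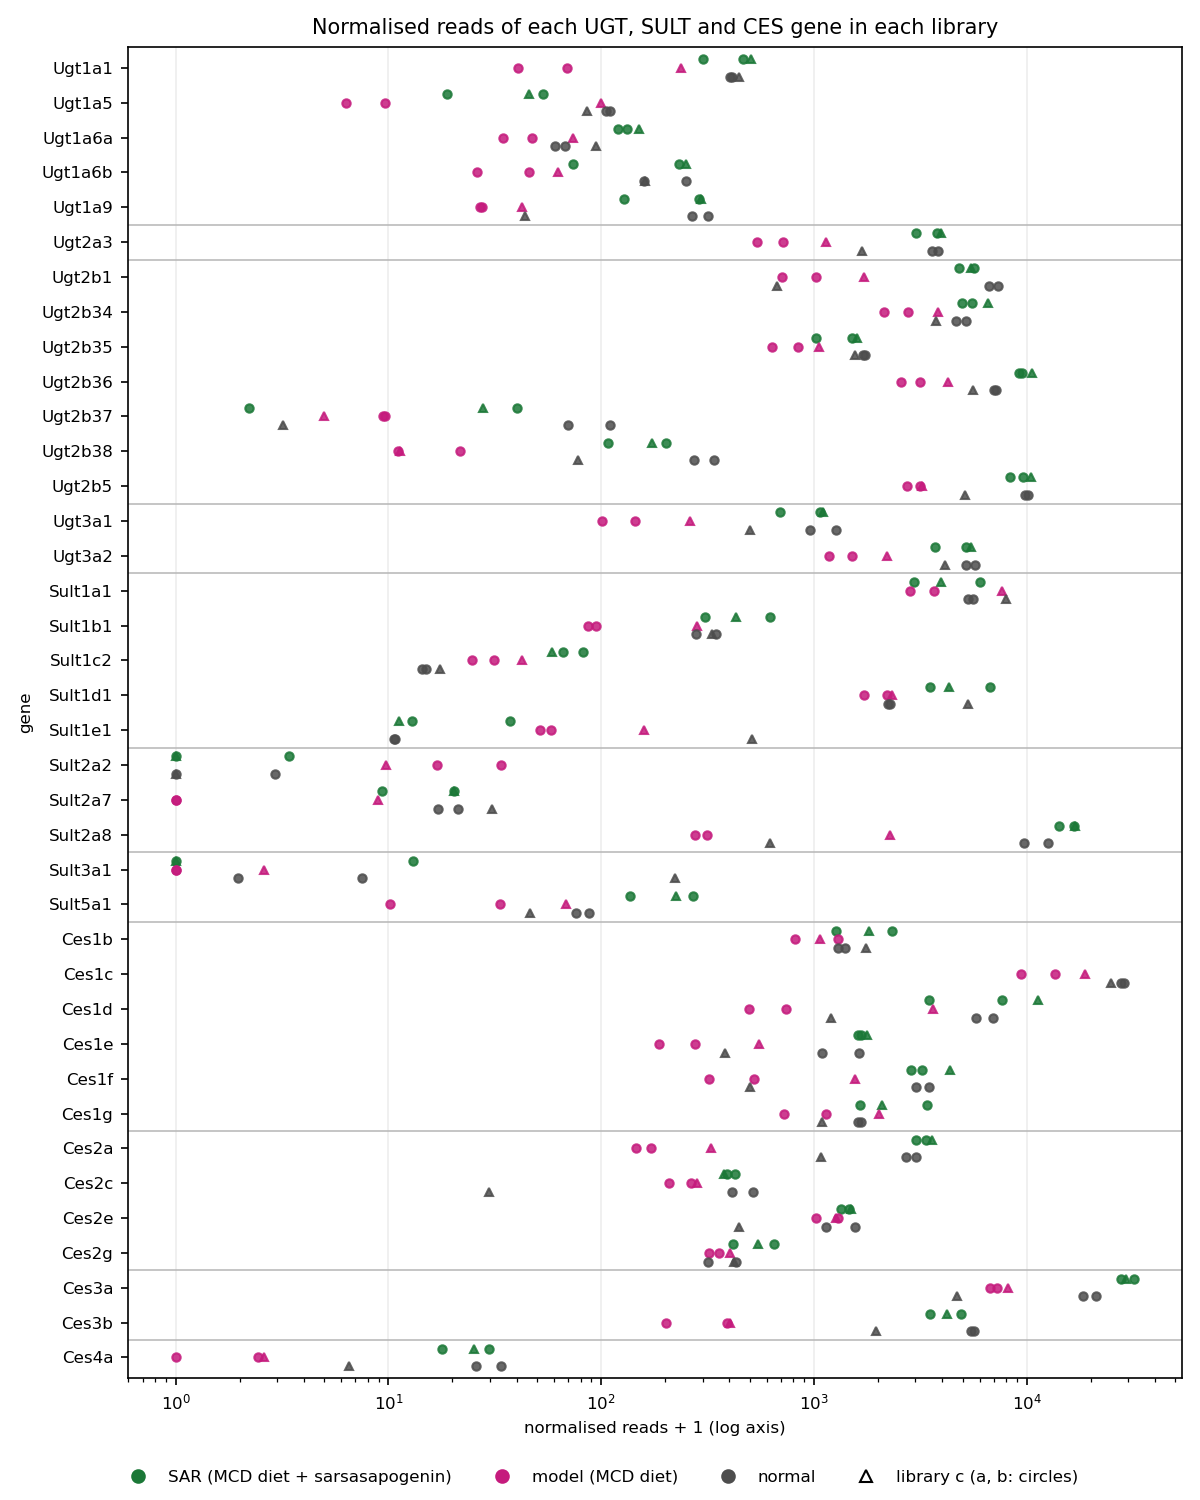
Normalised reads plus 1 (log axis) of the 38 genes, grouped by family, in each SAR, model and normal library (triangles mark library c of each group, circles a and b). The SAR values of Ces1c are not shown because its SAR reads were not resolved. Most model points lie to the left of the SAR and normal points, and normal library c lies left of normal a and b for many genes.

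The UGT1A genes share their last exons and differ in the first one. Ugt1a1, the bilirubin-conjugating enzyme, had 301, 463 and 507 normalised reads in the SAR libraries a, b and c, 39.6, 67.9 and 235 in the model libraries, and 400, 409 and 443 in the normal libraries. The model libraries all lay below the others, with model c the highest of them. Ugt1a1 fell in the model group by 2.27 on the log2 scale (SE 0.56, limma adjusted p = 0.0173) and rose in the SAR group by 2.27 over the model group (SE 0.55, limma adjusted p = 0.0161). Both calls were lost without some single libraries, the first without model a, model b or normal a (highest limma adjusted p = 0.0648) and the second without SAR b, SAR c or model b (highest limma adjusted p = 0.0655). Ugt1a9, a conjugating enzyme of phenols and other xenobiotics, had 128, 288 and 294 normalised reads in SAR, 26.7, 26.0 and 41.5 in model, and 316, 267 and 43.0 in normal libraries. Normal c lay just above the model libraries. Its log2 fold change was 2.83 in SAR against model (SE 0.36, limma adjusted p = 0.00145), called without each library too, and −2.30 in model against normal (SE 0.70, limma adjusted p = 0.0358). The second was lost without model a, model b, normal a or normal b (highest limma adjusted p = 0.117), and also when scaled to summed group means.

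Ugt1a6b, of the phenol-conjugating UGT1A6 pair, had 72.8, 230 and 250 normalised reads in SAR, 44.7, 25.2 and 61.4 in model and 249, 158 and 160 in normal libraries. It fell in the model group by 2.14 on the log2 scale (SE 0.36, limma adjusted p = 0.00469), whichever library was left out. It rose by 1.97 in SAR against model (SE 0.49, limma adjusted p = 0.0186), which was lost without SAR b, SAR c, model a or model b (highest limma adjusted p = 0.0814). Of the other UGT1A genes, Ugt1a6a rose in the SAR group (log2 fold change 1.47) and was not called in the model group (−0.57), and Ugt1a5 was called in neither comparison, but in both without model c (limma adjusted p = 0.0115 in SAR against model and 0.000845 in model against normal). In SAR against normal both were called only without normal c (limma adjusted p = 0.0233 for Ugt1a6a and 0.0499 for Ugt1a5). Reads cannot be assigned to a UGT1A gene from the shared exons. In the transcripts of GENCODE M21, 84.2% of the 31-base words of Ugt1a6b, 81.3% of Ugt1a1, 67.8% of Ugt1a9, 65.3% of Ugt1a5 and 53.0% of Ugt1a6a also occurred in other genes. The split of reads among these genes is therefore uncertain.

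The UGT2 genes conjugate steroids, bile acids and drugs. Ugt2b5 had 9655, 8338 and 10468 normalised reads in SAR, 2733, 3167 and 3211 in model and 9775, 10164 and 5133 in normal libraries. The 3 model libraries lay below the other 6. Ugt2b5 fell in the model group by 1.40 on the log2 scale (SE 0.30, limma adjusted p = 0.0101) and rose in the SAR group by 1.66 (SE 0.20, limma adjusted p = 0.00129), both also without each single library. Ugt2b36 had 9161, 9515 and 10564 normalised reads in SAR, 2568, 3157 and 4243 in model and 7000, 7135 and 5591 in normal libraries. Its groups of SAR, model and normal libraries did not overlap one another. Its log2 fold change was 1.60 in SAR against model (SE 0.24, limma adjusted p = 0.00258) and −1.01 in model against normal (SE 0.25, limma adjusted p = 0.0163), the second lost without model a, model b, normal a or normal b (highest limma adjusted p = 0.0726) and when scaled to summed group means.

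Ugt2b34 had 4981, 5506 and 6598 normalised reads in SAR, 2123, 2766 and 3813 in model and 5173, 4632 and 3760 in normal libraries. Model c and normal c nearly coincided. Its log2 fold change in SAR against model was 1.03 (SE 0.25, limma adjusted p = 0.0164), lost without SAR b, SAR c, model a or model b (highest limma adjusted p = 0.0683) and when scaled to summed group means, and its −0.67 in model against normal did not pass (limma adjusted p = 0.0715) except without model c (limma adjusted p = 0.0133). Ugt2b38 had few reads and the largest negative fold change of the UGT2B genes in model against normal. It had 200, 106 and 173 normalised reads in SAR, 10.1, 20.6 and 10.4 in model and 271, 337 and 77.1 in normal libraries. The model libraries lay far below all others. Its log2 fold change was −3.80 in model against normal (SE 0.57, limma adjusted p = 0.00349) and 3.50 in SAR against model (SE 0.37, limma adjusted p = 0.000901), with both calls kept without each library. Of the others, Ugt2b35 fell in the model group (−1.01) and rose in the SAR group (0.73), Ugt2b1 rose in the SAR group (2.32), and Ugt2b37 was called in neither. The second call of Ugt2b35 was lost without SAR b, SAR c, model a or model b (highest limma adjusted p = 0.153), and both of its calls were lost when scaled to summed group means. Ugt2b1 and Ugt2b37 were called in model against normal without normal c only (limma adjusted p = 0.00200 and 0.00261). Ugt2b37 reached the minimum mean through the normal and SAR groups, so its direction against the model group was set by the filter. Of the 31-base words of Ugt2b5, Ugt2b38 and Ugt2b37, 56.4%, 52.9% and 34.4% occur in other genes, so their reads are split uncertainly.

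Motifs were searched in the 250 bases before the RefSeq start in GRCm38.p6, a window that 31 of the 38 genes and 27025 genes in all had. Of the 7 UGT2B genes with a window, 5 held AGGTCA, a core motif of nuclear receptors, on either strand, as did 11 of 31 genes of the set (35.5%) and 15.8% of all genes. In 4 UGT2B genes it lay within the last 60 bases on the gene's strand, inside a stretch whose bases these paralogues largely share, so the 4 are not independent cases. Those 60 bases are printed for each, 5′ to 3′ on the gene's strand, with the motif in capitals, to show its place. The 4 genes were picked after their windows had been read. Ugt2b5 lies at chr5:87140341-87140400, Ugt2b36 at chr5:87092556-87092615, Ugt2b37 at chr5:87254789-87254848 and Ugt2b38 at chr5:87424204-87424263, all on the minus strand of GRCm38.p6.
Ugt2b5: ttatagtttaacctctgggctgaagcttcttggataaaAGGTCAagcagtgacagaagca
Ugt2b36: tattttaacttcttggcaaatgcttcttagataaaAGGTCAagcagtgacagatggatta
Ugt2b37: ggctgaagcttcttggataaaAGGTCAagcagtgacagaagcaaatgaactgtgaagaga
Ugt2b38: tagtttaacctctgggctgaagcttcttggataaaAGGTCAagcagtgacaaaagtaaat
Of these 4 genes, Ugt2b5, Ugt2b36 and Ugt2b38 were called in both comparisons with the model group and Ugt2b37 in neither. A match describes these letters and is not a site. Also searched on both strands were CAAAGTNCA (HNF4), in 0 of the 31 genes and 1.40% of all genes, TGACNNNGC (NRF2), in 0 and 11.5%, and GCGTG (AHR), in 3 (9.68%) and 30.9%.

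Ugt2a3, which conjugates bile acids in humans, had 3009, 3799 and 3966 normalised reads in SAR, 542, 714 and 1136 in model and 3833, 3592 and 1678 in normal libraries. The model libraries lay below the rest, and normal c lay below the other normal and the SAR libraries. The log2 fold changes were −1.91 in model against normal (SE 0.38, limma adjusted p = 0.00824) and 2.25 in SAR against model (SE 0.26, limma adjusted p = 0.00115). UGT3A enzymes use sugars other than glucuronic acid as donors. Ugt3a1 had 694, 1072 and 1102 normalised reads in SAR, 100 in model a, 144 in model b, 261 in model c and 1262, 958 and 499 in normal libraries. It fell by 2.44 on the log2 scale in the model group (SE 0.42, limma adjusted p = 0.00543) and rose by 2.60 in the SAR group (SE 0.33, limma adjusted p = 0.00148). Ugt3a2, with 3721, 5159 and 5448 normalised reads in SAR, 1176, 1515 and 2215 in model and 5718, 5195 and 4120 in normal libraries, fell by 1.65 (SE 0.26, limma adjusted p = 0.00402). It rose by 1.60 in SAR against model (SE 0.26, limma adjusted p = 0.00389). These 3 genes kept their calls in both comparisons without each single library. Counted over the UGT genes, Ugt2b37 among them, 10 of 15 fell in the model group, beside 19.1% of all genes. In the SAR group 13 of 15 rose, beside 13.2%. Without normal c and model c 14 of 15 fell, beside 28.2% of all genes, and without model c 14 of 15 rose, beside 20.5%.

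The SULT1 genes of phenol and amine sulfation held genes that rose, fell or did not pass. Sult1a1, the phenol sulfotransferase, had 2943, 6027 and 3952 normalised reads in SAR, 2813, 3673 and 7651 in model and 5310, 5593 and 7993 in normal libraries. All 3 groups overlapped, with the highest value of the SAR group in b and of the model and normal groups in c. Neither its log2 fold change of −0.53 in model against normal (SE 0.39, limma adjusted p = 0.298) nor its −0.04 in SAR against model (SE 0.39, limma adjusted p = 0.951) passed the test. Without model c the model against normal value passed (limma adjusted p = 0.0185), and it was 0.04 when scaled to summed group means. Sult1d1, which sulfates catecholamines, had 3517, 6731 and 4323 normalised reads in SAR, 1717, 2193 and 2326 in model and 2279, 2227 and 5271 in normal libraries. It rose in SAR against model by 1.20 (SE 0.26, limma adjusted p = 0.0110), a call lost when scaled to summed group means, and did not pass in model against normal (−0.54, SE 0.34, limma adjusted p = 0.237), where it was 0.03 when scaled to summed group means. Against the normal group it passed in the SAR group without normal c only (limma adjusted p = 0.0310).

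Sult1b1, which sulfates thyroid hormones, had 307, 618 and 427 normalised reads in SAR, 85.7, 93.1 and 281 in model and 345, 277 and 331 in normal libraries. Model c lay among the normal libraries and the other 2 model libraries far below. Its fall in the model group (log2 fold change −1.27, SE 0.42, limma adjusted p = 0.0476) was lost without any of model a, model b, normal a, normal b or normal c (highest limma adjusted p = 0.156), and its rise in the SAR group (1.74, SE 0.44, limma adjusted p = 0.0190) was lost without SAR b, SAR c, model a or model b (highest limma adjusted p = 0.0818). Both calls were also lost when scaled to summed group means. Sult1c2, a sulfotransferase of phenolic compounds, had 81.1, 65.3 and 57.7 normalised reads in SAR, 30.3, 23.7 and 41.5 in model and 13.4, 14 and 16.5 in normal libraries. The 3 groups did not overlap, in ascending order normal, model and SAR. It rose in SAR against model (1.12, SE 0.30, limma adjusted p = 0.0256) and in SAR against normal (2.12, SE 0.30, limma adjusted p = 0.0255), while model against normal missed the threshold (1.04, SE 0.37, limma adjusted p = 0.0600). The SAR against normal call was lost without each SAR library and without normal a or normal b (highest limma adjusted p = 0.0893), and the SAR against model call without every library but model c (highest limma adjusted p = 0.0970). Scaled to summed group means, it was called in model against normal and not in SAR against model.

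Sult1e1, the estrogen sulfotransferase, had 11.9, 36.3 and 10.3 normalised reads in SAR, 56.9, 50.4 and 158 in model and 9.60, 9.71 and 510 in normal libraries. Normal c alone exceeded every other library, and the model libraries lay above the SAR libraries. Sult1e1 fell in SAR against model (log2 fold change −2.13, SE 0.57, limma adjusted p = 0.0245), which was lost without SAR a, SAR c or model a (highest limma adjusted p = 0.0807). In model against normal its 1.01 did not pass (SE 1.41, limma adjusted p = 0.589), whereas without normal c and model c it was 2.36 (limma adjusted p = 0.000533). Without normal c alone it passed too (limma adjusted p = 0.00648).

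Sult2a8, a liver hydroxysteroid and bile acid sulfotransferase of the mouse (ENSMUSG00000030378), made up at least 90.5% of the SULT2 reads in each library, not corrected for length, and showed the largest log2 fold change of the set in SAR against model. It had 14152, 16624 and 16797 normalised reads in SAR, 276, 315 and 2283 in model and 12526, 9735 and 624 in normal libraries. Model c was the highest model library and normal c the lowest normal library, below model c. The log2 fold change in SAR against model was 4.78 (SE 0.68, limma adjusted p = 0.00213) and was called without each library. In model against normal it was −2.86 (SE 1.23, limma adjusted p = 0.0999), and without normal c and model c it was −5.23 (limma adjusted p = 1.36e-10). It passed also without either of them alone (lowest limma adjusted p = 0.00848). RefSeq gives it 2 windows with a transcript start, of which one holds no AGGTCA. In the other AGGTCA occurs 2 times, in the stretch shown here, at chr7:14438632-14438721 on the minus strand of GRCm38.p6.
Sult2a8: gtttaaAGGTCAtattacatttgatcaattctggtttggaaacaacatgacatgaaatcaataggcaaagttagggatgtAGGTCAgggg

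Sult2a2, a hydroxysteroid sulfotransferase, had 0, 2.42 and 0 normalised reads in SAR, 15.8, 32.8 and 8.77 in model and 1.92, 0 and 0 in normal libraries. It was the only gene of the set that rose in the model group, with 76 reads in the model libraries and 2 in the normal libraries. The ratio of the normalised sums was 27.6 (95% interval for counting error 7.38 to 232), and the limma adjusted p was 0.0159. Against the model group, the SAR group had a ratio of 0.0432 (0.00514 to 0.161), limma adjusted p = 0.0248, lost without SAR c. In GENCODE M21, 74.5% of its 31-base words occur in other genes, mainly Sult2a1, so these reads may belong to a relative. Sult2a2 reached the minimum mean through the model group, where it was high, so its rise there was built into its being in the set. Sult2a7 had 8.35, 19.4 and 19.2 normalised reads in SAR, 0, 0 and 7.97 in model and 20.2, 16.2 and 29.8 in normal libraries. It fell in the model group (log2 fold change −3.53, SE 1.02, limma adjusted p = 0.0291), which was lost without model a, model b, normal a or normal b (highest limma adjusted p = 0.0911). It reached the minimum in that table through the normal group, so its direction too was set by the filter.

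Sult5a1 had 136, 269 and 224 normalised reads in SAR, 32.4, 9.16 and 67.0 in model and 74.9, 86.3 and 45.2 in normal libraries. The SAR libraries lay above all others. Its model against normal value passed only without model c (limma adjusted p = 0.0353). It rose in SAR against model by 2.85 (SE 0.60, limma adjusted p = 0.00994) and in SAR against normal by 1.59 (SE 0.33, limma adjusted p = 0.0425), the second lost without each SAR library and without normal a or normal b (highest limma adjusted p = 0.116). Sult3a1, which conjugates amines, had 0, 12.1 and 0 normalised reads in SAR, 0, 0 and 1.59 in model and 0.960, 6.47 and 220 in normal libraries. Its reads in the normal group came almost wholly from library c, and it was not called in model against normal (limma adjusted p = 0.134). It reached the minimum through the normal group alone. In the model group it had 2 reads against 207 in the normal group, a ratio of 0.00702 (95% interval 0.000844 to 0.0257, counting error only). Over the 10 SULT genes, 2 fell and 1 rose in the model group, beside 19.1% and 19.9% of all genes, so the share that fell is near the background. Without model c 5 of 10 fell and 1 rose, beside 23.4% and 22.6% of all genes. Without normal c 1 of 8 fell and 2 rose, beside 18.4% and 20.6%. Without both 5 of 9 fell and 2 rose, beside 28.2% and 29.9%. The shares that rose, and the 1 of 8 that fell, are near or below the background. Of the 8 tested in SAR against model 5 rose and 2 fell, beside 13.2% and 16.1% of all genes. Without model c 5 rose and 2 fell too, beside 20.5% and 21% of all genes, so the share that fell is near the background.

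**Figure D2:**
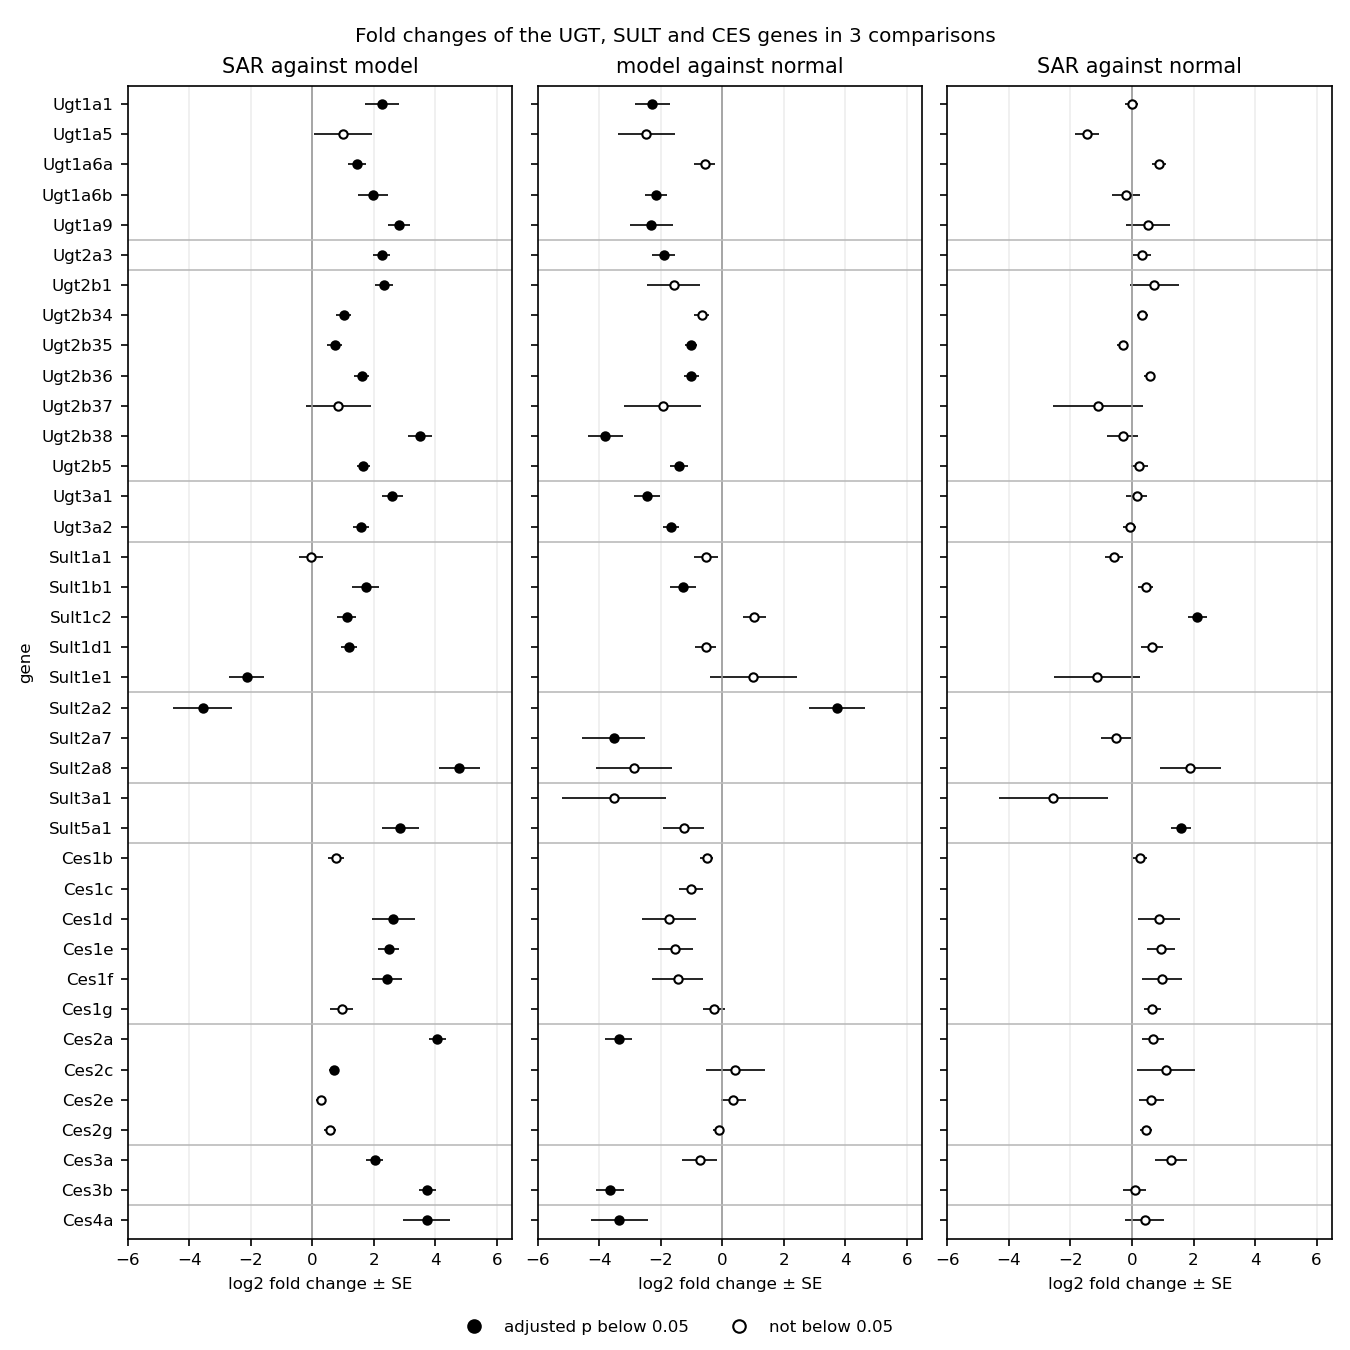
Log2 fold change with its standard error (x axis) of each gene (rows, by family) in SAR against model, model against normal and SAR against normal. Filled points have a limma adjusted p below 0.05. In SAR against model most points lie right of 0 and 28 are filled, in model against normal most lie left of 0 and 16 are filled, and in SAR against normal 2 are filled.

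The CES1 genes include lipid and drug hydrolases. Ces1c (ENSMUSG00000057400) encodes a secreted plasma carboxylesterase. Its reads per library were resolved in the model libraries, at 9362, 13606 and 18737 normalised reads, and in the normal libraries, at 28616, 27732 and 24790. The model libraries all lay below the normal libraries, with c the highest. The log2 fold change was −1.02 (SE 0.39) and did not pass (limma adjusted p = 0.0718), although it did without model c (limma adjusted p = 0.0132). In the authors' deposited table, the mean of Ces1c was 38762 for SAR and 14143 for model, a fold of 2.74 (the authors' adjusted p = 6.63e-08). Their table of model against normal has 15430 for model and 30055 for normal, a fold of 0.513 (the authors' adjusted p = 0.000857).

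Ces1d, a triacylglycerol and drug hydrolase, had 3476, 7647 and 11328 normalised reads in SAR, 493, 737 and 3624 in model and 5795, 6927 and 1201 in normal libraries. Model c lay above the lowest SAR library, and normal c below model c. SAR against model gave 2.63 (SE 0.69, limma adjusted p = 0.0225), which was lost without SAR b, SAR c, model a or model b (highest limma adjusted p = 0.0827). In model against normal it was −1.73 (SE 0.87, limma adjusted p = 0.145), and without both c libraries −3.40 (limma adjusted p = 2.61e-08), with a call also without either one alone. Ces1f had 2859, 3225 and 4355 normalised reads in SAR, 320, 522 and 1560 in model and 3476, 3027 and 500 in normal libraries. SAR against model gave 2.44 (SE 0.49, limma adjusted p = 0.00788), also without each library, and its −1.45 in model against normal (SE 0.82, limma adjusted p = 0.192) passed without normal c (limma adjusted p = 0.0183) and was −2.99 without both c libraries (limma adjusted p = 1.17e-07). Of the others, Ces1e rose in the SAR group (2.48) and was called lower in the model group only without model c or normal c (lowest limma adjusted p = 0.00886), while Ces1b (0.77) passed only without SAR a or model c and Ces1g (0.95) only without model c. In model against normal the 6 CES1 genes had log2 fold changes of −1.73 to −0.28 and did not pass with all libraries, and those of Ces1b and Ces1g turned positive when scaled to summed group means.

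Of the CES2 genes, Ces2a changed in both comparisons and Ces2c in one. Ces2a, a liver esterase (ENSMUSG00000055730), had 3006, 3348 and 3573 normalised reads in SAR, 171, 144 and 327 in model and 3018, 2705 and 1076 in normal libraries. The model libraries lay far below the other 6. Its log2 fold change was −3.36 in model against normal (SE 0.44, limma adjusted p = 0.00232) and 4.06 in SAR against model (SE 0.27, limma adjusted p = 0.000125), with both called without each library. Ces2e had 1339, 1464 and 1488 normalised reads in SAR, 1023, 1299 and 1271 in model and 1144, 1552 and 442 in normal libraries, and did not pass in either comparison (log2 fold change 0.28 in SAR against model, which was −0.28 when scaled to summed group means, and 0.37 in model against normal). Ces2g had 414, 646 and 544 in SAR, 319, 355 and 403 in model and 317, 429 and 421 in normal libraries, with values of 0.58 (limma adjusted p = 0.0505, passing without SAR a or model c) and −0.11 (limma adjusted p = 0.623), the second positive when scaled to summed group means. Ces2c rose in the SAR group by 0.69 (limma adjusted p = 0.0150), lost without SAR b or model b (highest limma adjusted p = 0.0705) and when scaled to summed group means. In model against normal it was 0.43 and not called. The sign turned without normal c (−0.89, limma adjusted p = 0.0119), and it was −0.98 without normal c and model c (limma adjusted p = 0.000345). Ces2a took, not corrected for length, 57.3% to 59.7% of the CES2 reads in the SAR libraries, 7.20% to 14.3% in the model libraries and 52.0% to 61.7% in the normal libraries. The share of Ces2e was 24.9% to 25.8%, 55.7% to 64.8% and 22.5% to 29.8% in the same groups. Of the 31-base words of Ces2a and Ces2c, 30.2% and 50.1% occur in other genes.

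Ces3a and Ces3b are closely related carboxylesterases and share 34.9% and 35.7% of their 31-base words with each other. Ces3a (ENSMUSG00000069922) had 31956, 27720 and 29384 normalised reads in SAR, 6685, 7250 and 8199 in model and 21205, 18345 and 4689 in normal libraries. Normal c lay below the model libraries. SAR against model gave 2.03 (SE 0.27, limma adjusted p = 0.00176). Its −0.74 in model against normal did not pass (SE 0.56, limma adjusted p = 0.317), and without normal c and model c it was −1.51 (limma adjusted p = 6.36e-05). It passed without normal c alone (limma adjusted p = 0.0106). Ces3b (ENSMUSG00000062181) had 3495, 4885 and 4218 normalised reads in SAR, 390 in model a, 200 in model b, 401 in model c and 5498, 5638 and 1958 in normal libraries. It fell by 3.64 on the log2 scale in the model group (SE 0.45, limma adjusted p = 0.00200) and rose by 3.74 in the SAR group (SE 0.27, limma adjusted p = 0.000168), with both called without each library. Its share of CES3 reads was 9.86% to 15% in SAR, 2.68% to 5.52% in model and 20.6% to 29.5% in normal libraries.

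Ces4a, the only CES4 or CES5 gene above the minimum, had 28.6, 16.9 and 24.4 normalised reads in SAR, 1.44, 0 and 1.59 in model and 32.6, 24.8 and 5.51 in normal libraries. It fell in the model group (log2 fold change −3.35, SE 0.92, limma adjusted p = 0.0247), lost without model a or model b (highest limma adjusted p = 0.0773), and rose in the SAR group (3.72, SE 0.77, limma adjusted p = 0.00915). It reached the minimum through the normal and SAR groups, so both of these directions were set by the filter. Its fall was tested in only 4 of the 6 fits that left out 1 library, as its mean was under 10 in the others. Counted over the CES genes, Ces4a among them, 3 of 13 fell in the model group, near the 19.1% of all genes, and 8 of 12 rose in the SAR group, beside 13.2%. Without normal c 8 of 13 fell, without model c 6, and without both 10, beside 18.4%, 23.4% and 28.2% of all genes. In SAR against model 11 of 12 rose without model c, beside 20.5% of all genes.

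Reads were also summed over each family. The SULT2 sum was 14161, 16645 and 16816 normalised reads in SAR, 292, 347 and 2299 in model and 12549, 9751 and 653 in normal libraries. Its ratio of group means was 16.2 in SAR over model and 0.128 in model over normal. These ratios turned on the c libraries, with 49.7 in SAR over model without model c, and, in model over normal, 0.0418 without model c, 0.0878 without normal c and 0.0287 without both. For CES3 the ratios were 4.40 and 0.403, for UGT1A 3.66 and 0.281, for CES1 without Ces1c 3.29 and 0.467, for UGT3A 3.18 and 0.305, for UGT2B 2.82 and 0.429, and for CES2 2.81 and 0.503. Those of SULT3 to SULT7 were 5.82 and 0.254, and those of SULT1, the nearest to 1 of these families, were 1.37 and 0.702. Without model c, SAR over model was 6.28 for UGT1A, 5.17 for CES1 and 10.3 for SULT3 to SULT7, and model over normal was 0.164, 0.297 and 0.144. For SULT3 to SULT7, model over normal was 0.435 without normal c. Without both c libraries, model over normal was 0.151 for UGT1A, 0.233 for CES1, and between 0.224 and 0.375 for UGT2B, UGT3A, CES2 and CES3. A family sum follows its most abundant members, and the values are given as descriptions with no test.

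**Figure D3:**
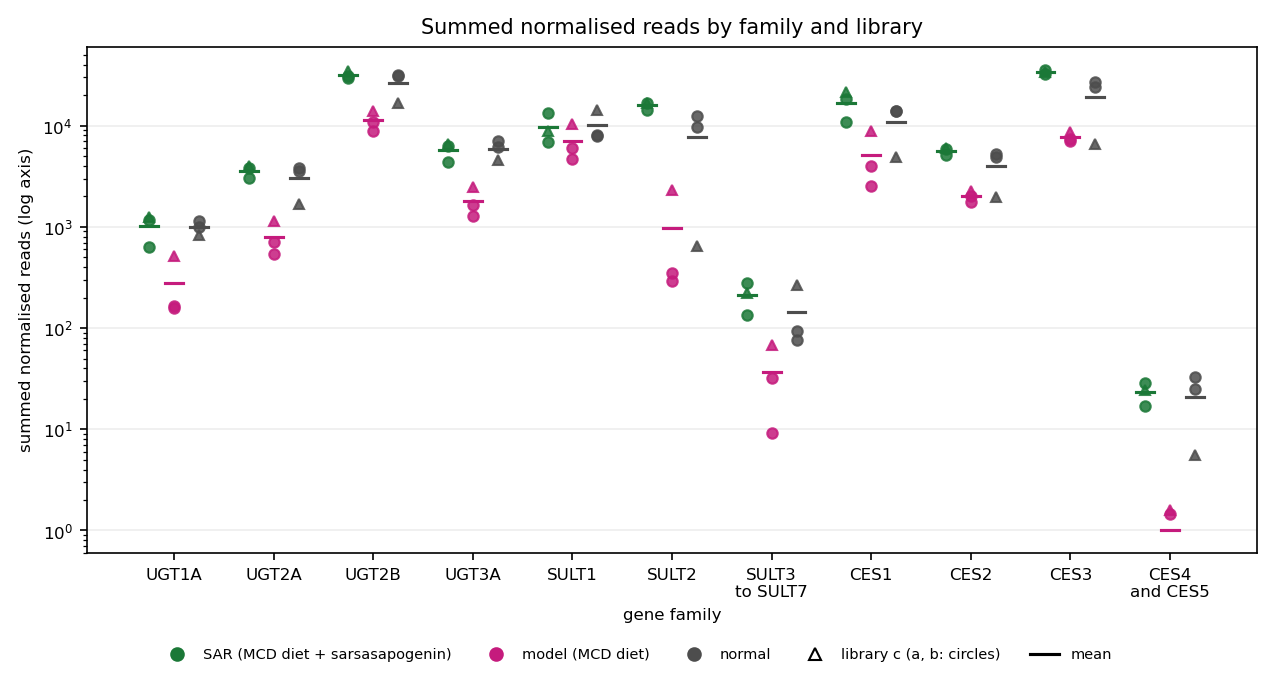
Summed normalised reads (log axis) of each family in each library, for SAR, model and normal libraries from left to right, with bars at group means and triangles for library c. A library with a sum of 0 (CES4 and CES5, model b) has no point. The SULT2 sum has a wide gap between SAR and model libraries, and its normal c lies far below normal a and b.

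The groups did not overlap in any library for 15 genes that were lower and 2 that were higher in the model group than in the normal group, and for 21 they overlapped. Of all 12451 genes with a mean of at least 10, 26.7% were lower and 27.3% higher without overlap. In SAR against model 27 were higher, 2 were lower and 8 overlapped, where 21% of 12459 genes were higher and 24.1% lower. The counts of both comparisons with the model group include Ces4a, Sult2a2 and Sult2a7, whose directions were set by the filter. In SAR against normal 6 were higher, 1 was lower and 30 overlapped, beside 15.8% higher and 17.4% lower of 11776 genes, so the share that was higher is near the background. Normal c was the lowest normal library in 24 of 37 resolved genes and the highest in 9, while model c was the highest model library in 32 and the lowest in 2. Leaving out both, 29 of 37 genes were called lower and 2 higher in the model group, with a median log2 fold change of −2.03, where all genes tested gave 3567 lower and 3782 higher of 12662.

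**Figure D4:**
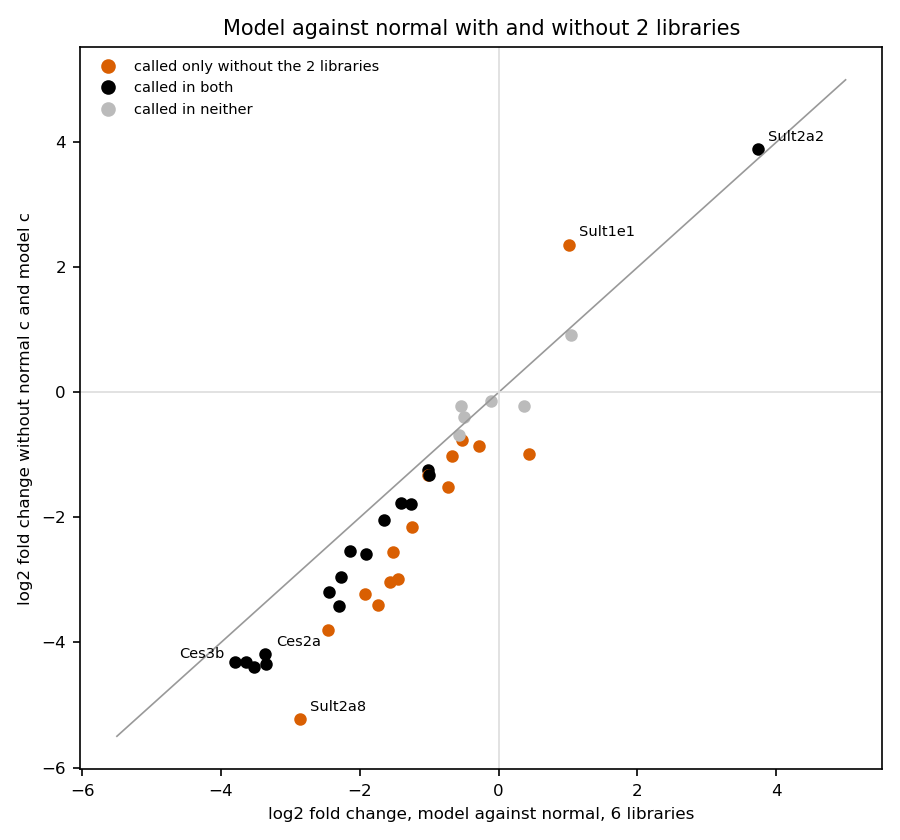
Log2 fold change in model against normal with all 6 libraries (x axis) and without normal c and model c (y axis) for each gene tested in both, with the diagonal drawn. Black points were called in both, orange points only without the 2 libraries and grey points in neither. Most points lie below the diagonal, and Sult2a8 stands at −2.86 and −5.23.

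Genes around these enzymes were counted from 19 lists with 207 symbols, none of them a UGT, SULT or CES gene of the set. Cux2, Hnf4a, Nqo1 and Slco1a1 stand on more than 1 list, so the lists are not wholly separate. Counts are of all libraries, and where leaving out one library or another scaling moved them far, that is given at the end of the paragraph. In model against normal 19.1% of all genes were called lower and 19.9% higher, and in SAR against model 13.2% higher and 16.1% lower. Of the 10 tested genes that supply the cosubstrates, 3 fell and 1 rose in the model group, near those shares. In the SAR group 4 of the 10 rose. Suox, which oxidises sulfite to sulfate, averaged 1157 ± 389 normalised reads in SAR, 415 ± 214 in model and 1666 ± 179 in normal libraries (SD, n = 3 each). Slc26a1, a sulfate transporter, averaged 1172 ± 205, 551 ± 157 and 1653 ± 245 in the same order. Of other phase II enzymes, 6 of 15 fell in the model group and 11 of 17 rose in the SAR group, among them Inmt, an amine methyltransferase (log2 fold change 3.50, limma adjusted p = 0.00743), and Nat8 (2.10, limma adjusted p = 0.00981). Acsm3, of medium-chain acyl-CoA ligases, fell in the model group (log2 fold change −2.41, limma adjusted p = 0.00259) and so did Nnmt, the nicotinamide methyltransferase (−2.27, limma adjusted p = 0.0106). Of 9 other esterases and lipases tested, 4 fell in the model group, Pon1 (−1.36) and Bche (−1.14) most, and 5 rose in the SAR group, Pon1 (1.97) and Lipc (1.86) most. Of 3 hydrolases that cut conjugates, Gusb, β-glucuronidase, fell in the SAR group (−0.79). When each library was left out in turn, 4 to 8 other phase II enzymes and 2 to 7 esterases fell in the model group, and 6 to 14 and 3 to 6 rose in the SAR group. Of the cosubstrate genes 3 to 4 fell in the model group and 2 to 5 rose in the SAR group. Without normal c and model c, 11 of 15 phase II enzymes and 8 of 9 esterases fell, beside 28.2% of all genes. Scaled to summed group means, no esterase fell in the model group and 1 rose, and 1 cosubstrate gene rose and 3 fell in the SAR group. The falls of Pon1 in the model group and of Gusb in the SAR group were lost without some single libraries (highest limma adjusted p = 0.120 and 0.0510).

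Among 12 transporters of conjugates and bile acids, 5 fell and 3 rose in the model group, beside 19.1% and 19.9% of all genes. In the SAR group 7 rose and 2 fell against the model group, beside 13.2% and 16.1% of all genes. Slco1a1, an uptake transporter, averaged 2501 ± 427 normalised reads in SAR, 48.9 ± 27.3 in model and 2690 ± 2331 in normal libraries, where the spread is wide. Its log2 fold change in model against normal was −4.76 (SE 1.26, limma adjusted p = 0.0217) and in SAR against model 5.79 (SE 0.34, limma adjusted p = 5.43e-05). The efflux transporters Abcb1a (2.08) and Abcc4 (1.34) rose in the model group and fell in the SAR group (−1.35 and −1.20). The falls of Slco1a1 in the model group and of Abcb1a and Abcc4 in the SAR group were lost without some single libraries (highest limma adjusted p = 0.0770, 0.0771 and 0.0625). When each library was left out in turn, 1 to 8 of the transporters fell in the model group and 3 to 9 rose in the SAR group, and scaled to summed group means 2 rose and 3 fell in the SAR group. Without normal c and model c 9 fell in the model group, beside 28.2% of all genes.

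Of 23 regulators of these genes, 10 fell in the model group, beside 19.1% of all genes. In the SAR group 11 rose and 1 fell, beside 13.2% and 16.1% of all genes. Hnf4a, a nuclear receptor of hepatocytes, averaged 10918 ± 1074 normalised reads in SAR, 4768 ± 556 in model and 12144 ± 500 in normal libraries (SD, n = 3 each). Nr1i3, which encodes the receptor CAR, averaged 415 ± 114 in SAR, 152 ± 183 in model and 401 ± 33.1 in normal libraries. Its model libraries had 54.8, 37.4 and 363, with c near the normal libraries. It rose in SAR against model (2.16, limma adjusted p = 0.0471), lost without every library but model c (highest limma adjusted p = 0.151). In model against normal it did not pass (−2.13, limma adjusted p = 0.0538), except without model c (limma adjusted p = 0.000487). Bcl6 rose in the SAR group (1.90), Onecut1 fell most in the model group (−1.72), and Arnt fell in the SAR group (−0.48). Nfe2l2, which encodes NRF2, Nr1i2, which encodes PXR, and Stat5b did not pass in these comparisons, though Nr1i2 did in SAR against model without model c (limma adjusted p = 0.00114). The calls of Onecut1 and Arnt were lost without most single libraries (highest limma adjusted p = 0.123 and 0.112). When each library was left out in turn, 5 to 12 regulators fell in the model group and 5 to 13 rose in the SAR group. Without normal c and model c 15 of 22 fell, beside 28.2% of all genes. Scaled to summed group means, 3 fell and 4 rose in the model group, and 3 rose and 3 fell in the SAR group.

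Target lists of these regulators did not all move as the enzymes did. In model against normal 19.1% of all genes were called lower and 19.9% higher. In SAR against model 13.2% were called higher and 16.1% lower. Of 10 NRF2 targets, 6 rose and 1 fell in the model group, and 1 rose and 5 fell in the SAR group. Gsta1 and Slc7a11 rose most in the model group (5.78 and 3.89), and Gsta1 and Hmox1 fell most in the SAR group (−2.48 and −1.81). Of 7 CAR and PXR targets, 3 fell and 2 rose in the model group, and 3 of 6 rose in the SAR group, Cyp2c29 (4.15) and Cyp2c37 (2.85) most. Of 5 AHR targets, 1 rose in the model group, and of 4 in SAR against model 1 rose, Cyp1a2 (2.31), and 1 fell. These AHR counts are near the shares of all genes. Of 15 genes with male-biased liver expression in mice, 10 fell in the model group and 14 rose in the SAR group, with medians of −3.76 and 4.01. The sum of 14 resolved male-biased genes was 47615 to 56062 normalised reads in SAR libraries, 3055 to 4620 in model libraries and 15336 to 77019 in normal libraries, where c was the lowest. Of 10 female-biased genes 1 rose in the model group and 1 fell in the SAR group, Cyp2a4 in both, which is no more than the shares of all genes. The sum of 13 female-biased genes was 863 to 2165 normalised reads in SAR, 680 to 7488 in model and 593 to 2071 in normal libraries. Library c was the highest of each group, and model a and b were at 680 and 1185. When each library was left out in turn, 5 to 14 male-biased genes fell in the model group and 13 to 14 rose in the SAR group. Without normal c and model c all 15 fell, beside 28.2% of all genes. Of the CAR and PXR targets 0 to 3 fell in the model group and 1 to 4 rose in the SAR group. The rise of Cyp2c37 and the fall of Cyp2a4 in the SAR group were lost without some single libraries (highest limma adjusted p = 0.0797 and 0.131).

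Markers of other liver cell types were counted in the same way, with sums given for SAR, model and normal libraries. The shares of all genes were 19.1% lower and 19.9% higher in the model group, and 13.2% higher and 16.1% lower in the SAR group. Of 9 cholangiocyte markers tested, 8 rose in the model group and 5 fell in the SAR group, and the sum of the 10 was 911 to 1914 normalised reads in SAR, 2113 to 11192 in model and 574 to 998 in normal libraries. The 2113 was that of model c, against 9921 in model a and 11192 in model b. Of 9 stellate cell and fibroblast markers, 6 rose in the model group and 8 fell in the SAR group, with sums of 3465 to 5999, 10215 to 22140 and 1024 to 4243, the lowest model sum again in c. Model c, lowest in both of these sums, was the highest model library for 32 of 37 genes of the set. Of 12 macrophage markers 6 rose and 3 fell in the model group and 7 fell in the SAR group, with sums of 3554 to 5402, 8124 to 12111 and 5016 to 7970. Of 6 T and B cell markers 4 rose in the model group and 2 fell in the SAR group, with sums of 85.9 to 173, 258 to 394 and 69.1 to 104. Of 8 endothelial markers 3 fell in the model group and 1 in the SAR group, with sums of 1146 to 2615, 2167 to 2509 and 2081 to 4597. The endothelial count in the SAR group is near the share of all genes. Of 9 neutrophil and acute phase genes tested, 3 rose and 5 fell in the SAR group. Of the hepatocyte markers 4 of 12 were resolved in all libraries, with sums of 51054 to 54089, 20243 to 29639 and 45746 to 51231, and 2 of 4 tested fell in the model group and 4 of 6 rose in the SAR group. The 8 hepatocyte markers that were not resolved are missing from these sums, which do not describe the whole list. Of the markers of intestine, pancreas and kidney 5 were present, and 1 of 3 tested, Vil1, rose in the model group. When each library was left out in turn, 1 to 9 cholangiocyte markers rose in the model group and 0 to 9 fell in the SAR group, 4 to 7 stellate cell and fibroblast markers rose and 4 to 8 fell, 2 to 5 T and B cell markers rose and 0 to 4 fell, and 2 to 4 hepatocyte markers fell and 2 to 6 rose. Of the endothelial markers 1 to 4 fell in the model group, and 0 when scaled to summed group means. Of the neutrophil and acute phase genes 0 rose in the model group, and 6 without normal c. The call of Vil1 was lost without model a or model b (highest limma adjusted p = 0.114). The part of these cell types in the changes of the UGT, SULT and CES genes was not tested.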

How the data were processed

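RNA of 9 liver samples, 3 per group, was sequenced, after Trizol extraction and NEBNext library preparation, per the labels' protocols. The submitters' processing notes name the genome build mm9. Which aligner, counter, annotation or strand setting was used is not given in the sources used here, so genes that overlap on either strand may hold each other's reads. Group means stand in the 2 tables that the authors deposited. Per the file headers, the deposited signal is a group's mean of reads over size factors, the deposited ratio or fold divides one group mean by the other, with its log2 in a further column, and the deposited p-values come from the test of the authors.

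A deposited mean is a sum of 3 whole read numbers, each times a constant of its library, printed to 15 digits, so reads per library were recovered from the means. Model reads were found for 16147 of 16147 genes. For the normal and SAR groups the genes with the highest means were not tried. Of those tried, normal reads were found for 16297 of 16331 and SAR reads for 16239 of 16260, and the other 34 and 21 had several solutions. With the genes not tried, 77 normal and 55 SAR genes were not recovered. For 13408 of 13408 genes both tables alone gave the same model reads. When 2000 means were moved by a tiny amount none was solved, against 2000 of 2000 unmoved. In all 9 libraries 16435 of 16521 IDs were recovered and 86 were not. Recomputed size factors differed from the authors' by at most 0.219%. For Ces1c in the SAR group 2 sets of reads gave the mean, so only the authors' deposited values are given. Of the summed group means, recovered reads covered 53.7% for normal and 55.6% for SAR, as abundant genes were not split. IDs were matched to symbols for 16490 of 16521.

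On the recovered reads divided by size factors, limma (version 3.58.1, R 4.3.3) was run on log2(value + 1), with a trended variance, as a two-sided test. Its p-values were adjusted by Benjamini and Hochberg across the genes averaging at least 10 over the 6 libraries, at a threshold of 0.05. Size factors were the authors' within a table and medians of ratios for SAR against normal, whose libraries stand in different tables. Values per library are on 1 common scale of the 9 libraries, by medians of ratios. Fold changes understate low genes. The recovery and the fit were tested on simulated data. Promoters came from RefSeq of GRCm38.p6 and were matched for 31 genes by symbol. One regulator and its motif are not reported here. Protein identity could not be run, and shared 31-base words of GENCODE M21 transcripts were used in its place. Python was 3.11.15 with numpy 2.4.6, pandas 2.3.3, numba 0.67.0, scipy 1.17.1 and matplotlib 3.10.9.

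Named genes were the 3 with the highest mean in each family and, per comparison, the 8 with the largest log2 fold change in each direction past the threshold. Of the lists, the 2 genes with the largest change past the threshold in each direction were named, with some whose role was needed. The genes, lists and tests were chosen with earlier results of these data known. Alternatives were a pseudocount of 10, no filter, upper quartile scaling, voom weights, the authors' adjusted p-values, leaving out each library, and a minimum mean of 50. Intervals cover counting error only.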

Additional observations from a re-analysis of the deposited data

How the results depend on the processing

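No paired analysis was possible because the deposited means carry no replicate number that ties a library to a library of another group. With a minimum mean of 50 the set had 33 genes instead of 38.

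Under a pseudocount of 10, no filter, upper quartile scaling, voom weights and the authors' adjusted p-values, the genes of the set called numbered 16 to 17 in model against normal and 24 to 30 in SAR against model. In SAR against normal they numbered 2, and 1 with voom weights. Leaving out each library in turn gave 9 to 24 in model against normal, 19 to 32 in SAR against model and 0 to 5 in SAR against normal. Over all genes it gave 2435 to 5794, 1545 to 5166 and 6 to 1087. Leaving out normal c gave 23 and 5 genes of the set in model against normal and SAR against normal, and leaving out model c gave 24 and 32 in model against normal and SAR against model.

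An alternative chosen after seeing the data left out normal c and model c together and gave 31 genes of the set in model against normal. Another, also chosen after seeing the data, scaled to summed group means and gave 13 and 21 genes of the set and, over all genes, 6488 in model against normal, of which 5905 were higher, and 5938 in SAR against model, of which 5563 were lower. Under it Ces1b, Ces1g, Ces2g, Sult1a1 and Sult1d1 changed sign in model against normal and Ces2e in SAR against model, none of them called in either setting. This scaling moves each log2 fold change by about 0.571 in model against normal and −0.564 in SAR against model. Why the summed means of the groups differ was not tested. Of 82 fold changes of named genes, 82 kept direction and side of the threshold with no filter, 81 with a pseudocount of 10, 78 with voom weights and 79 with upper quartile scaling. Upper quartile scaling moved the split of all calls in SAR against model to 1328 higher and 2203 lower, against 1647 and 2013. Depth limits the 9 resolved genes with under 100 reads in a group, Ces4a, Sult1c2, Sult1e1, Sult2a2, Sult2a7, Sult3a1, Ugt1a5, Ugt2b37 and Ugt2b38.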
